A study of Mus musculus with 11 samples.

Results

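Caveolae are small flask-shaped pits of the plasma membrane that hold cholesterol, buffer membrane tension and gather signalling receptors. Their coat is built from caveolins, membrane proteins that insert into the inner leaflet, and from cavins, soluble proteins that assemble around the caveolin core. The ATPase EHD2 sits at the neck and holds the pit at the surface, and PACSIN2, a protein that bends membranes, helps to shape it. Hepatocytes carry few caveolae compared with endothelial cells, adipocytes and muscle, where the coat proteins are abundant.

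The genes described here were *Cav1* and *Cav2* (caveolins), *Cavin1*, *Cavin2* and *Cavin3* (cavins), *Ehd2* and *Pacsin2*. They were picked by name, with their expression in the same libraries already known, and make up 7 of the 24849 genes in the table. Each of them was found under 1 table entry. Since levels in the KO, WT and KI cells guided the choice, the levels and fold changes of these 7 genes are given as a description, with no p-value. Calls counted for them are a description too, and the share of all genes called stands beside the main count.

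Polyadenylated RNA was sequenced from AML12 cells, a line of mouse hepatocytes, in 3 groups that differ in TXNDC5, a protein disulfide isomerase of the endoplasmic reticulum. WT are the parental cells (3 libraries, named WT 5-6, WT 7 and WT 8). KO (4 libraries, KO 5 to KO 8) carries the genotype label TXNDC5 Knockdown, while the methods describe stable clones cut by CRISPR/Cas9 within *Txndc5* and selected with puromycin through a repair plasmid. KI (4 libraries, KI 5 to KI 8) is labelled TXNDC5 Knockin and expresses TXNDC5 from the ROSA26 locus. All groups share the AML12 background, and the methods give 1 medium, DMEM/F-12 with fetal bovine serum, insulin, transferrin, selenium and dexamethasone. The sources do not say how many clones stand behind the KO or the KI libraries, nor whether the libraries of a group come from separate cultures, so that a p-value measures only the spread between these libraries, and a difference that belongs to a clone cannot be told apart from one that belongs to TXNDC5.

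The WT libraries held 29840366 to 30364098 counts each, the KO libraries 30380360 to 38422243 and the KI libraries 32360709 to 35335070. Levels are counts set to a common library size by edgeR's TMM scaling (CPM). In WT, 1 newly assembled entry took 11.3 to 17.1% of the counts, against 4.32 to 6.44% in KO and 4.82 to 9.12% in KI. Scaling by library totals instead shifted the median gene's log2 fold change from -0.03 to 0.38 in KO against WT, and from -0.02 to 0.30 in KI against WT. A change is therefore relative to the bulk of the genes. The part of the newly assembled entry in this shift was not tested. *Txndc5* itself had 364, 287, 430 and 408 counts in KO, 3299, 3429 and 4046 in WT and 5654, 6511, 6723 and 5344 in KI. The KO libraries were low throughout, as their label says. The KI level was 169 ± 10.3 CPM (SD, n = 4) against 143 ± 4.37 in WT (SD, n = 3), with groups that do not overlap and a log2 fold change of 0.24 that was not called (adjusted p = 0.136, edgeR's quasi-likelihood test), so that the KI cells differ little from WT in this RNA. With library totals the *Txndc5* difference between KI and WT was called, at 0.57.

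The sequence upstream of 3 of these genes is shown because the results turn on them: *Cav1* and *Cav2* are neighbours on 1 chromosome whose RNA went apart in KO, and *Ehd2* was lowest in WT. Each run holds the 250 bases before the outermost RefSeq start of the gene on GRCm38.p6, in lower case, with every CG pair, the site of DNA methylation, in capitals. The RefSeq promoter table had entries for 6 of the 7 genes and none for *Cavin3*.
Cav1, chr6:17306085-17306334, plus strand: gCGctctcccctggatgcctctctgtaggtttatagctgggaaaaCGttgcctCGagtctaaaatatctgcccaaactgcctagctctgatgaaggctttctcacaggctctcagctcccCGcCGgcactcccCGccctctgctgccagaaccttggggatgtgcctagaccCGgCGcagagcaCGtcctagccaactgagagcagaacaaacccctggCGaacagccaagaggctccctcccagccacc
Cav2, chr6:17280935-17281184, plus strand: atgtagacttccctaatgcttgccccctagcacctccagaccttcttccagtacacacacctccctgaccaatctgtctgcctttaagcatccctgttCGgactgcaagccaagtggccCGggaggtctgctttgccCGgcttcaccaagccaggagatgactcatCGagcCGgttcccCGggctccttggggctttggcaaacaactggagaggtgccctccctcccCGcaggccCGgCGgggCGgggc
Ehd2, chr7:15967536-15967785, minus strand: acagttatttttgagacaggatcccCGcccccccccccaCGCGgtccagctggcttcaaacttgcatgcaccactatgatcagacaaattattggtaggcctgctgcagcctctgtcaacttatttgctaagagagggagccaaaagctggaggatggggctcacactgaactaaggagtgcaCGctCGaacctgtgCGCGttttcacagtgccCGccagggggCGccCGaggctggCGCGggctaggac

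These stretches were searched on both strands for CATTCC (the core of the TEAD motif), GGGCGG (the GC box) and TATAAA (the TATA box). *Cav1* had 10 CG pairs, 1 match to GGGCGG and 1 to TATAAA. The TATAAA match was read on the opposite strand, toward the outer end of the window and far from the start. The window of another *Cav1* start, further in, had 12 CG pairs and 0 matches to the 3 motifs. *Cav2* had 10 CG pairs and 1 match to GGGCGG. *Ehd2* had 12 CG pairs and 1 match to GGGCGG, and none of the 3 windows shown held CATTCC. Of the 32851 promoter windows of this length, 37.8% had at least 10 CG pairs and 33.5% at least 12, and the letters were present in 12.6% (CATTCC), 32.7% (GGGCGG) and 12.4% (TATAAA). *Cavin1* held 1 CATTCC and 1 GGGCGG, and *Cavin2* held 2 CG pairs. Methylation and factor binding were not measured in these libraries.

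Across the 3 lines the genes of the coat did not move as a block. *Cavin3* RNA was found in KO and was absent or nearly so in WT and KI. *Ehd2* ran in the order WT, KI, KO, with groups that do not overlap. *Cav1* was lowest in KI, *Cav2* was lower in both modified lines than in WT by the group means, and *Cavin1* was level in all 3. In bulk RNA, fewer cells that express a gene and less RNA per cell cannot be told apart.

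**Figure D1:**
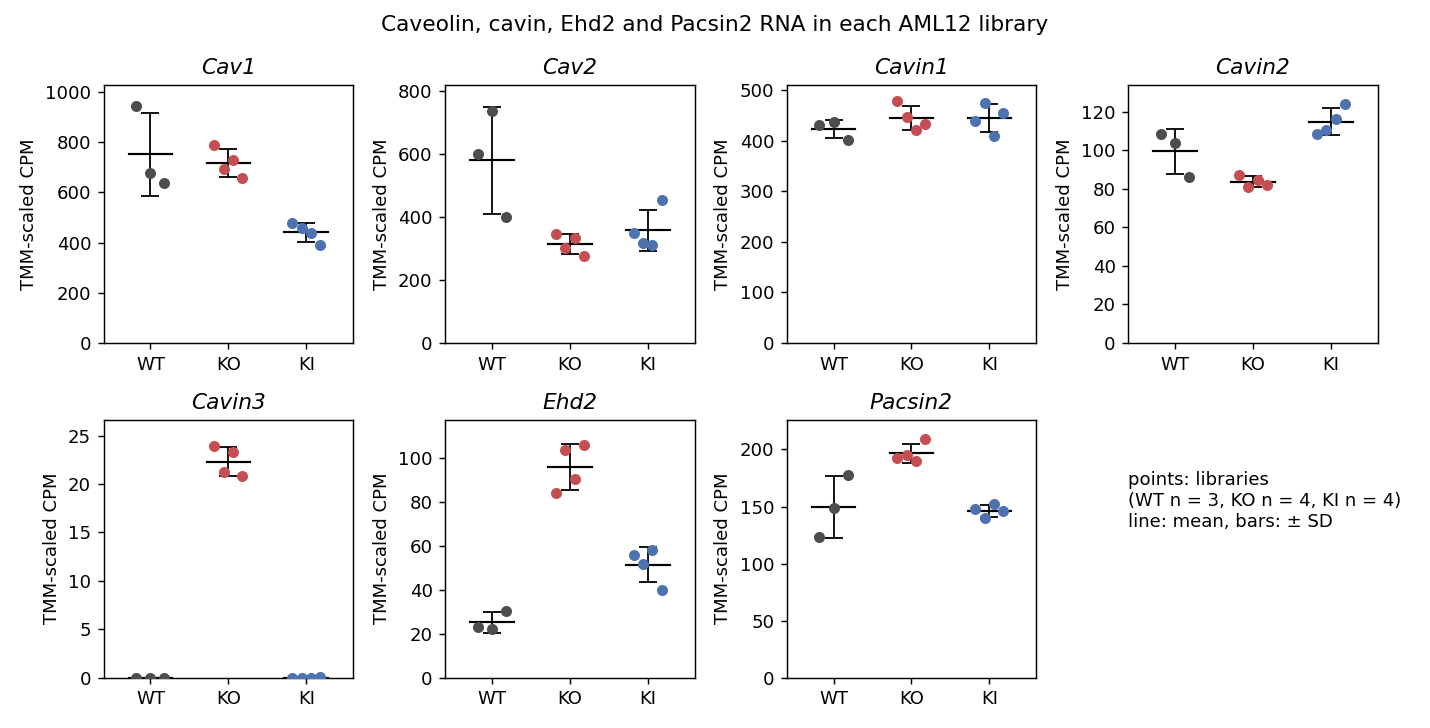
TMM-scaled CPM (y axis, linear, from 0) of each of the 7 genes in the WT (n = 3), KO (n = 4) and KI (n = 4) libraries, with points for libraries, a line for the mean and bars for ± SD. *Cavin3* lies between 20.8 and 23.9 CPM in KO and at or near 0 elsewhere, and *Ehd2* climbs from WT through KI to KO without overlap.

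*Cav1* encodes the caveolin without which most cells form no caveolae. Its level was 788, 691, 729 and 656 CPM in KO 5 to KO 8, 942, 677 and 636 in WT 5-6, WT 7 and WT 8, and 478, 460, 438 and 391 in KI 5 to KI 8. All KI libraries lay under all others, while KO fell within the range of WT, which was set by the high WT 5-6. The log2 fold change was -0.77 (standard error 0.16) in KI against WT and 0.70 (standard error 0.09) in KO against KI, a 1.63-fold difference between the modified lines. With library totals the value for KI against WT was -0.42. Between KO and WT the log2 fold change was -0.09 (standard error 0.16). This sign turned to 0.13 without WT 5-6 and to 0.34 with library totals, the latter close to the shift of the median gene.

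*Cav2* encodes the partner that joins caveolin-1 in hetero-oligomers and needs it to leave the Golgi. It had 346, 301, 332 and 275 CPM in KO, 600, 736 and 399 in WT and 350, 318, 311 and 452 in KI. The WT libraries spread widely, from WT 8 to WT 7, yet all of them were above all KO libraries. KI overlapped WT through KI 8, which stood above WT 8. The log2 fold change was -0.91 (standard error 0.19) in KO against WT and -0.70 (standard error 0.21) in KI against WT, and KO against KI gave -0.19 (standard error 0.12). The value for KI against WT was -0.48 without WT 7 and -0.35 with library totals.

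A ratio of counts within a library does not depend on the scaling. The count of *Cav1* divided by that of *Cav2* was 2.28, 2.29, 2.20 and 2.39 in KO, 1.57, 0.919 and 1.59 in WT, and 1.37, 1.45, 1.41 and 0.865 in KI. All KO libraries were above all others, and WT and KI overlapped. WT 7 and KI 8 were the libraries in which *Cav2* outnumbered *Cav1*.

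**Figure D2:**
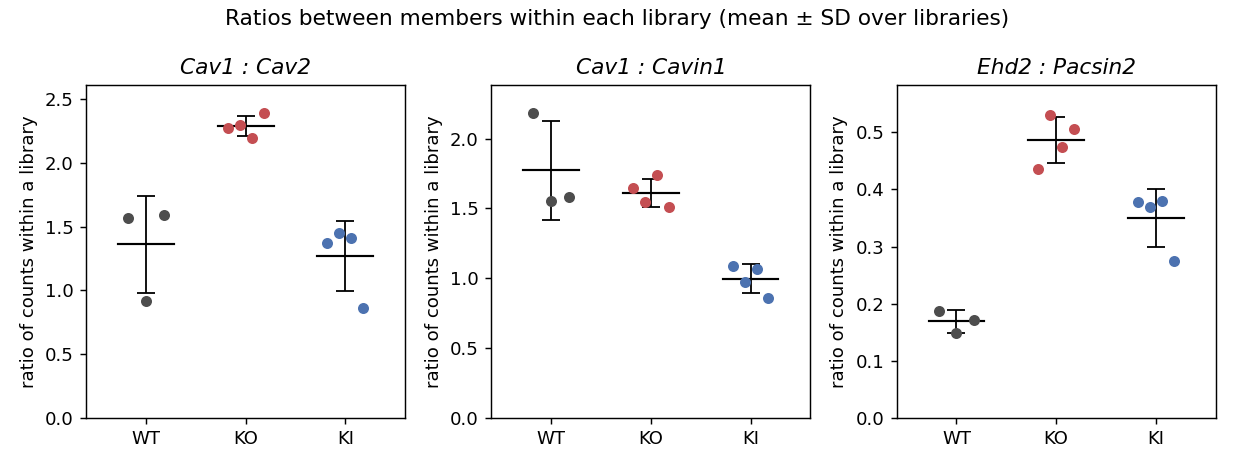
Ratio of the counts of a pair of genes within each library (y axes, linear, from 0) for *Cav1* to *Cav2*, *Cav1* to *Cavin1* and *Ehd2* to *Pacsin2*, with points for libraries, a line for the mean and bars for ± SD (WT n = 3, KO n = 4, KI n = 4). *Cav1* to *Cav2* is highest in KO, at 2.20 to 2.39, *Cav1* to *Cavin1* is lowest in KI, at 0.860 to 1.09, and *Ehd2* to *Pacsin2* runs from WT through KI to KO.

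*Cavin1* encodes the cavin that every caveola coat needs and on which the other cavins assemble. Its levels were 477, 447, 420 and 434 CPM in KO, 432, 436 and 402 in WT and 439, 475, 410 and 454 in KI. The 3 groups overlap. Its log2 fold changes were 0.05 (standard error 0.12) in KO against WT, 0.07 (standard error 0.13) in KI against WT and 0.00 (standard error 0.08) in KO against KI. With library totals the comparisons with WT gave 0.47 and 0.40, beside the median gene's 0.38 and 0.30. Set against this gene, *Cav1* counts were 1.65, 1.55, 1.74 and 1.51 times those of *Cavin1* in KO and 2.18, 1.55 and 1.58 times in WT. In KI the factor was 1.09, 0.969, 1.07 and 0.860, under every KO and WT library.

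*Cavin2* encodes a cavin that binds phosphatidylserine and shapes the membrane in some tissues. Its level was 87.4, 80.7, 84.4 and 82.0 CPM in KO, 109, 104 and 86.4 in WT and 109, 111, 116 and 124 in KI. KO and KI did not overlap, and KO against KI gave -0.45 on the log2 scale (standard error 0.08). WT stood between them, at -0.27 (standard error 0.12) for KO against WT and 0.21 (standard error 0.13) for KI against WT. KO 5 was above WT 8, so KO and WT overlapped, and with library totals KO against WT turned to 0.15. Set against *Cavin1* within a library, *Cavin2* counts were 0.181 to 0.201 times as many in KO, 0.215 to 0.252 in WT and 0.233 to 0.283 in KI, and on this ratio KO lay below both other groups.

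*Cavin3* encodes the cavin that recruits protein kinase C delta to the coat and couples caveolae to signalling. It had 854, 717, 776 and 905 counts in KO 5 to KO 8, or 23.9, 21.2, 23.3 and 20.8 CPM. In the WT libraries it had 0 counts in all 3, and in KI it had 0, 0, 0 and 2. The KO libraries lay close together, at 22.3 ± 1.53 CPM (SD, n = 4). Against a floor of 3 counts per library, which is 0.120 CPM on average over WT and covers counting error only, its level was at least 185-fold higher in KO than in WT. Against the 2 counts summed over the KI libraries the 3252 counts of KO gave a ratio of 1592 (95% exact interval 440.4 to 13152, counting error only). *Cavin3* entered the comparisons with KO only because of its KO counts, and the low-count filter removed it from KI against WT.

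The gene list has 2 other members on which the pit's shape depends. *Ehd2* had 83.9, 104, 90.1 and 106 CPM in KO, 23.0, 21.9 and 30.5 in WT and 55.8, 51.5, 57.9 and 40.0 in KI. Each KO library was above each KI library, and each KI library above each WT library. The log2 fold change was 1.91 (standard error 0.15) in KO against WT, 1.03 (standard error 0.17) in KI against WT and 0.90 (standard error 0.12) in KO against KI. In linear terms these are 3.75-fold, 2.04-fold and 1.87-fold, and they ranged from 1.84 to 2.10, from 0.94 to 1.19 and from 0.79 to 0.97 on the log2 scale over the fits that each leave out 1 library.

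*Pacsin2* had 192, 195, 190 and 209 CPM in KO, 123, 148 and 178 in WT and 148, 140, 153 and 146 in KI. KO stood above both other groups in every library, and KI fell within WT. The log2 fold change was 0.37 (standard error 0.14) in KO against WT, 0.43 (standard error 0.08) in KO against KI and -0.03 (standard error 0.14) in KI against WT. Leaving out 1 library gave 0.27 (WT 5-6) to 0.54 (WT 8) in KO against WT. The sign in KI against WT turned to 0.11 without WT 8 and to 0.27 with library totals. The counts of *Ehd2* were 0.436 to 0.531 times those of *Pacsin2* in KO, 0.275 to 0.380 in KI and 0.148 to 0.187 in WT, a ratio that separates the 3 lines whatever the scaling.

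**Figure D3:**
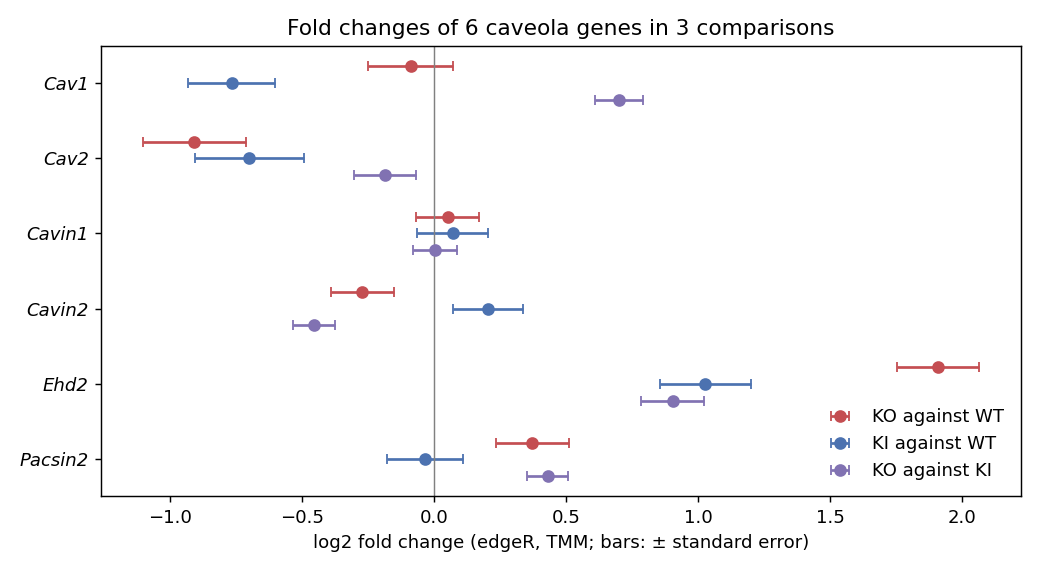
Log2 fold change (x axis, edgeR with TMM, bars for ± standard error) of 6 of the genes in KO against WT, KI against WT and KO against KI. *Ehd2* lies to the right in all 3, *Cavin1* at 0, and *Cav1* at -0.77 in KI against WT and 0.70 in KO against KI, whereas *Cavin3*, with 0 counts in WT, is not drawn.

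Counting calls at an adjusted p under 0.05 in edgeR's quasi-likelihood test puts these values beside the rest of the table. In KO against WT, 3 of the 7 genes were higher (*Cavin3*, *Ehd2*, *Pacsin2*) and 1 lower (*Cav2*), where 26.7% of the 13359 genes tested were called higher and 28.4% lower. In KI against WT, 1 was higher (*Ehd2*) and 2 lower (*Cav1*, *Cav2*), where 21.2% of 13534 were higher and 21.0% lower. In KO against KI, 4 were higher (*Cav1*, *Cavin3*, *Ehd2*, *Pacsin2*) and 1 lower (*Cavin2*), where 27.0% of 13269 were called in either direction alone. *Ehd2* was called in all 3 comparisons and *Cavin1* in none. Groups did not overlap for 4, 2 and 5 of the genes, where 55.3%, 44.7% and 48.6% of all genes did not overlap. These contrasts guided the choice of the genes, so nothing is read from the counts. Leaving out 1 library moved the count in KO against WT between 3 and 5, through *Pacsin2* (kept only without WT 8) and *Cavin2* (added without WT 8), and in KI against WT between 2 and 3, through *Cav2* (dropped without WT 7 or KI 6). The comparisons with WT share the WT libraries, and both comparisons with KO share the KO libraries.

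Per length, on the scale of CPM per kb of exon, the order of the levels differed between the lines. In KO it was *Cav1* at 208 ± 16.4, *Cavin1* at 124 ± 6.83, *Cav2* at 94.0 ± 9.58, *Pacsin2* at 40.1 ± 1.72, *Cavin2* at 27.4 ± 0.959, *Ehd2* at 18.7 ± 2.05 and *Cavin3* at 13.4 ± 0.918 (SD, n = 4). No neighbours in this order overlapped. In WT, *Cav1* at 218 ± 48.3, *Cav2* at 173 ± 50.9 and *Cavin1* at 118 ± 5.21 (SD, n = 3) came first, where *Cav2* overlapped with both others, and *Cavin2* at 32.6 ± 3.84 overlapped with *Pacsin2* at 30.5 ± 5.53. *Ehd2* followed at 4.91 ± 0.903, with *Cavin3* at 0. In KI the top 3 overlapped, with *Cav1* at 113 to 139, *Cavin1* at 114 to 132 and *Cav2* at 93.3 to 135. *Cavin2* at 37.6 ± 2.28, *Pacsin2* at 29.8 ± 1.09 and *Ehd2* at 10.0 ± 1.56 (SD, n = 4) were each apart from their neighbours.

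Summed over the 7 genes, the level per kb was 525 ± 28.6 in KO (496 to 564), 578 ± 80.4 in WT (487 to 639) and 437 ± 16.3 in KI (415 to 454). On this TMM scale KI lay under both other groups, which overlap. The sum was not computed with library totals, so the separation of KI from WT is given for TMM only. *Cav1* made up 39.5% ± 1.02 of the sum in KO, 37.7% ± 5.23 in WT and 29.4% ± 2.96 in KI. *Cavin1* was the nearest to it in KI, with 28.4% ± 1.34, against 23.6% ± 0.964 in KO and 20.6% ± 2.15 in WT. The distance between *Cav1* and *Cavin1* was thus smallest in KI. *Cav2* held 17.9% ± 1.02 in KO, 29.7% ± 6.04 in WT and 24.5% ± 3.67 in KI. The neck protein gene *Ehd2* held 3.58% ± 0.568 in KO, 0.878% ± 0.299 in WT and 2.31% ± 0.425 in KI, and *Cavin3* held 2.56% ± 0.0767 in KO (SD, n = 4 for KO and KI, n = 3 for WT).

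**Figure D4:**
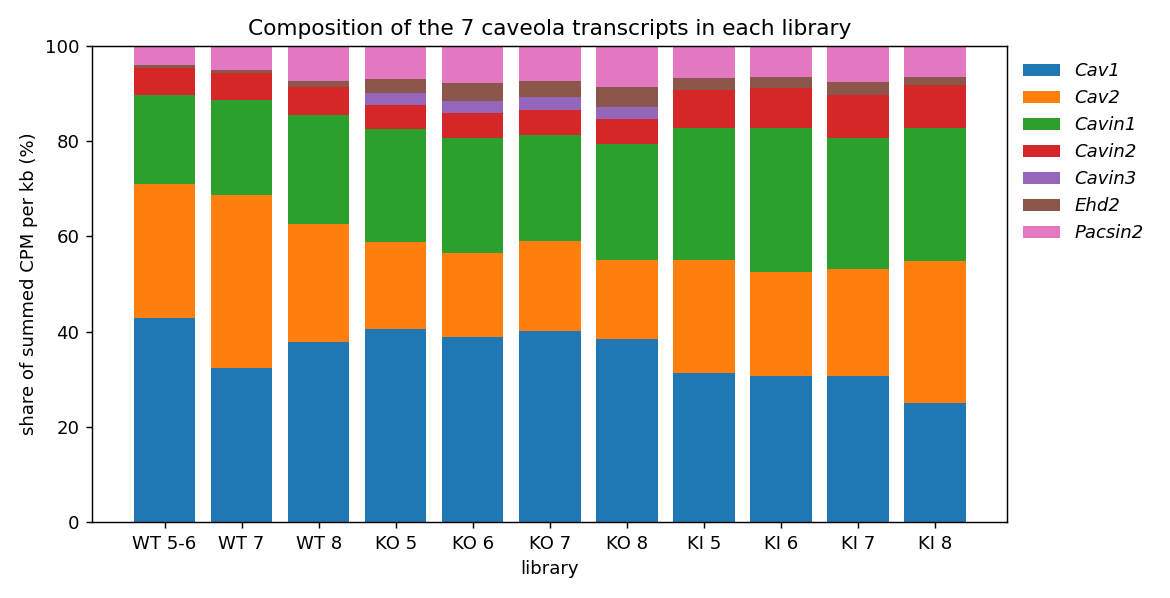
Share (%, y axis, linear) of each gene in the summed CPM per kb of the 7 genes, 1 bar per library. The *Cav2* part is widest in WT 7, at 36.4%, *Cavin3* shows in the KO bars alone, and the *Cav1* part is narrowest in KI 8, at 25.0%.

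The genes sit on 5 chromosomes, and the chromosome medians give the background of each. *Cavin3* and *Ehd2* are both on chromosome 7, where the 932 genes tested had a median log2 fold change of 0.53 in KO against WT. In KI against WT this median was 0.10, and in KO against KI it was 0.43. For chromosome 6, with *Cav1* and *Cav2*, the medians were 0.08, -0.06 and 0.15 in the same order. These lie near the median of all genes. For chromosome 11, with *Cavin1*, they were -0.34, -0.09 and -0.27. *Cavin2* is on chromosome 1 (-0.10, -0.10 and 0.04) and *Pacsin2* on chromosome 15 (0.07, 0.23 and -0.13). The part of the chromosome-wide shift in the levels of *Cavin3* and *Ehd2* was not tested.

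The 3 annotated genes on either side of *Cavin3*, and of the *Cav1* and *Cav2* pair, were looked up in RefSeq order. Around *Cavin3*, 3 of 6 were in the table, of which *Cckbr*, a gastrin receptor gene, and *Cnga4*, an olfactory channel gene, had 0 counts in all libraries. *Smpd1*, which encodes acid sphingomyelinase, had 99.7 ± 4.96 CPM in KO, 57.6 ± 3.46 in WT and 61.6 ± 7.18 in KI (SD, n = 4, 3 and 4). It rose in KO against WT by 0.77 on the log2 scale (adjusted p = 0.000186, edgeR's quasi-likelihood test), and in KO against KI by 0.70 (adjusted p = 2.23e-05). KI against WT gave 0.10 (adjusted p = 0.598, edgeR's quasi-likelihood test). Beside the caveolin pair, 1 of 6 was in the table, *Met*, the hepatocyte growth factor receptor gene. It had 276 ± 30.4 CPM in KO, 160 ± 30.9 in WT and 146 ± 30.3 in KI (SD, n = 4, 3 and 4). *Met* rose in KO against WT by 0.77 (adjusted p = 0.00199) and in KO against KI by 0.92 (adjusted p = 3.12e-05), while KI against WT gave -0.13 (adjusted p = 0.591, all from edgeR's quasi-likelihood test).

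The other caveolin, cavin, EHD and PACSIN genes number 7, of which 3 had enough counts to be tested. *Cav3* and *Cavin4*, the muscle forms, reached at most 10 and 2 counts in any library, and *Ehd3* and *Pacsin1* at most 8 and 10. *Pacsin3*, the relative of *Pacsin2* that is abundant in muscle, rose in KO against WT by 0.55 (adjusted p = 0.00357) and in KI against WT by 0.39 (adjusted p = 0.0289), both from edgeR's quasi-likelihood test. *Ehd4*, whose product acts at endosomes, rose in KO against WT by 0.44 (adjusted p = 0.0216, edgeR's quasi-likelihood test) and gave 0.23 in KI against WT (adjusted p = 0.227), which was called without WT 8, at 0.37, and with library totals, at 0.53. Both calls were narrow. *Ehd4* lost its call in KO against WT without KO 6, KO 8, WT 5-6 or WT 7, and *Pacsin3* lost its call in KI against WT without WT 7, KI 5, KI 6 or KI 8. *Ehd1*, counted under 2 table entries of nearly equal counts that may share reads, gave -0.15 in KO against WT (adjusted p = 0.262) and -0.19 in KI against WT (adjusted p = 0.258, edgeR's quasi-likelihood test), and both signs turned with library totals.

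Flotillins and stomatins are scaffold proteins with a shared domain that line membrane domains rich in cholesterol. Of the 5 tested, 2 fell in KO against WT, *Stoml1* by 1.04 (adjusted p = 0.000121) and *Stom* by 0.53 (adjusted p = 0.00237, edgeR's quasi-likelihood test), the latter not called with library totals, at -0.11. *Flot2* gave -0.28 (adjusted p = 0.0684), *Flot1* -0.10 (adjusted p = 0.529) and *Stoml2* 0.21 (adjusted p = 0.368, edgeR's quasi-likelihood test). Library totals turned the signs of *Flot1* and *Flot2*, and with them *Stoml2* was called higher, at 0.65. *Flot1* was counted under several table entries that may share reads. DESeq2 called 3 of the 5 in KO against WT, *Flot2* being the other, beside 28.4% of all genes called lower by edgeR. In KI against WT edgeR called 0 of the 5, with 1 at an unadjusted p under 0.05, where 21.2% of all genes were called higher and 21.0% lower. *Flot2* was called there by DESeq2 (-0.35), in the fit of all 11 libraries (-0.33) and without WT 5-6 (-0.39), while limma called 0 of the 5.

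Proteins that bind or cut the caveola coat were followed as a list of 21 genes, of which 19 were tested. In KO against WT, 3 rose, 3 fell and 13 were not called, and in KI against WT 3 rose, 4 fell and 12 were not called. Of all genes tested, 26.7% were called higher and 28.4% lower in the first comparison, and 21.2% and 21.0% in the second. The shares of the list were under those of all genes in the first comparison and near them in the second. The falls include *Dnm3* in the first and *Dnm1* in the second, which passed the low-count filter only through WT. *Cd36*, a fatty acid transporter held in caveolae, had 3.97 to 6.39 CPM in KO, 72.1 to 141 in WT and 7.32 to 9.88 in KI. It fell by 4.46 in KO against WT (adjusted p = 3.01e-07) and by 3.77 in KI against WT (adjusted p = 1.95e-07, edgeR's quasi-likelihood test). *Flna*, which encodes the actin crosslinker filamin A that tethers caveolae to stress fibres, had 1237 ± 195 CPM in KO, 476 ± 113 in WT and 1212 ± 174 in KI (SD, n = 4, 3 and 4). It rose by 1.36 (adjusted p = 0.000171) and 1.35 (adjusted p = 0.000163, edgeR's quasi-likelihood test) in the same comparisons.

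*Ror1*, a receptor that binds caveola proteins, rose by 1.11 in KO against WT (adjusted p = 0.00185) and gave 0.26 in KI against WT (adjusted p = 0.36, edgeR's quasi-likelihood test), which was called without WT 8, at 0.56. The dynamins are GTPases that cut vesicles from the membrane. *Dnm3* was low, at 2 to 9 counts in KO, 13 to 23 in WT and 54 to 81 in KI. In KO against WT it passed the low-count filter only through WT. Its log2 fold change there, -1.96 and -1.71 without WT 5-6, is given as a description. *Dnm3* rose by 1.29 in KI against WT (adjusted p = 0.0165, edgeR's quasi-likelihood test), a call lost without WT 7 or KI 5. *Dnm1* passed the filter in KI against WT only through WT, so its log2 fold change of -3.69 there is a description as well. It had 3.94 ± 1.18 CPM in WT (SD, n = 3) and 0.249 ± 0.139 in KI (SD, n = 4).

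Transcription factors with a proposed role at caveolin or cavin genes made up a list of 15, all tested. In KO against WT 5 rose, 1 fell and 9 were not called, and in KI against WT 4 rose, 2 fell and 9 were not called, where 26.7% and 21.2% of all genes rose and 28.4% and 21.0% fell. *Foxm1*, a factor of dividing cells, rose by 2.46 (adjusted p = 1.26e-06) and 1.45 (adjusted p = 3.29e-05, edgeR's quasi-likelihood test) in these comparisons. *Klf4* rose by 2.45 in KO against WT (adjusted p = 3.62e-06) and fell by 0.66 in KI against WT (adjusted p = 0.0361, edgeR's quasi-likelihood test), the latter not called with library totals or without WT 7 or any 1 KI library. TEAD factors are the DNA-binding partners of YAP and TAZ. *Tead2* went opposite ways, with 8.27 ± 0.223 CPM in KO, 20.2 ± 0.502 in WT and 51.9 ± 2.51 in KI (SD, n = 4, 3 and 4), so that it fell by 1.30 in KO against WT (adjusted p = 1.60e-05) and rose by 1.36 in KI against WT (adjusted p = 9.07e-06, edgeR's quasi-likelihood test). *Tead4* rose by 1.02 in KO against WT (adjusted p = 0.000165) and gave 0.36 in KI against WT (adjusted p = 0.0945, edgeR's quasi-likelihood test), which was called with library totals, at 0.69, and in the fit of all 11 libraries.

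Of 7 genes for the writing and removal of DNA methylation, 6 were tested in KO against WT, where 2 rose, 1 fell and 3 were not called (26.7% and 28.4% of all genes). All 7 were tested in KI against WT, where 3 rose and 4 were not called (21.2% of all genes rose). *Dnmt1*, the maintenance methyltransferase gene, rose by 1.48 (adjusted p = 6.71e-05) and 1.35 (adjusted p = 5.81e-05, edgeR's quasi-likelihood test). *Uhrf1*, whose product brings DNMT1 to replicated DNA, rose by 2.07 (adjusted p = 5.31e-06) and 1.39 (adjusted p = 3.91e-05, edgeR's quasi-likelihood test). *Tet1*, a 5-methylcytosine oxidase gene, had 24 to 79 counts in KI, at most 4 in WT and at most 7 in KO, so that it passed the low-count filter only through KI. Its rise is among the 3 counted in KI against WT and is a description only. Over the 56 genes of the 5 lists together, 12 of 48 tested rose and 7 fell in KO against WT (26.7% and 28.4% of all genes), with a median of 0.02 beside -0.03 for all genes. In KI against WT 11 of 49 rose and 6 fell (21.2% and 21.0% of all genes), with a median of -0.02 beside -0.02. These totals include *Dnm3* in KO against WT, and *Dnm1* and *Tet1* in KI against WT. Those genes passed the filter only through the group where they were high.

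**Figure D5:**
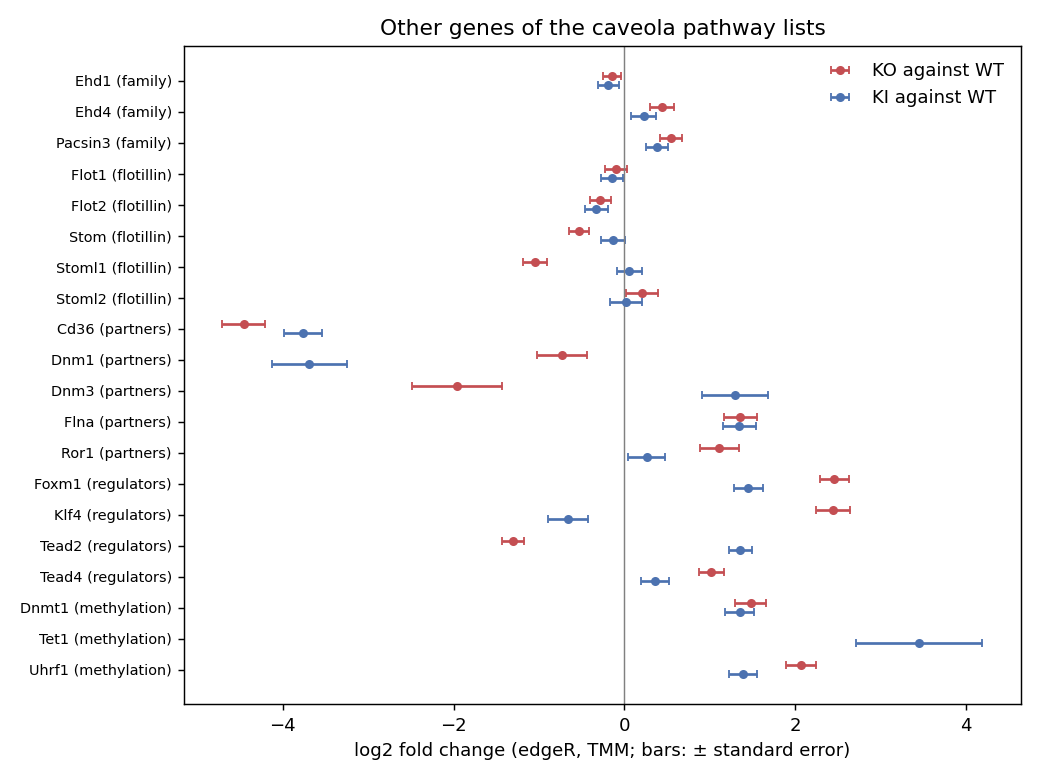
Log2 fold change (x axis, edgeR with TMM, bars for ± standard error) of the named genes of the 5 lists in KO against WT and KI against WT. *Cd36* lies far left in both, *Flna*, *Foxm1*, *Dnmt1* and *Uhrf1* right in both, and *Klf4*, *Tead2* and *Dnm3* on opposite sides.

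Markers of other cell types were read in the same libraries. The 8 endothelial markers summed to 0.0920 to 0.420 CPM in KO, 0.323 to 2.30 in WT and 0.0839 to 0.730 in KI, with *Tek* and *Emcn* at or under 3 counts in every library. The 10 fibroblast and stellate markers summed to 0.308 to 1.15, 0.580 to 1.86 and 0.496 to 1.09 CPM, with *Col1a2*, *Col3a1*, *Pdgfrb*, *Lrat* and *Lum* at or under 3 counts throughout. *Plvap*, the diaphragm protein gene of endothelium, was the 1 endothelial marker tested, with 0 to 14 counts in KO, 8 to 53 in WT and 0 to 14 in KI. It passed the low-count filter only through WT and was not tested in KO against KI. Its log2 fold changes, -2.21 in KO against WT and -2.16 in KI against WT, are therefore given as a description. The 8 adipocyte and muscle markers summed to 1.51 to 2.49, 4.32 to 12.6 and 2.67 to 5.32 CPM, with *Adipoq*, *Plin1*, *Lep*, *Myod1* and *Myog* at or under 3 counts. *Fabp4*, a fatty acid binding protein gene of adipocytes, made up nearly all of it in WT, with 122 to 312 counts there, 43 to 83 in KO and 93 to 180 in KI. It fell by 2.42 in KO against WT (adjusted p = 0.000233) and by 1.34 in KI against WT (adjusted p = 0.00656, edgeR's quasi-likelihood test). The 6 macrophage and leukocyte markers summed to 377 to 465, 481 to 669 and 375 to 423 CPM, most of it *Cd14*, while *Adgre1* was at 0. The 12 hepatocyte markers summed to 9750 to 11595, 7392 to 9438 and 8573 to 10153 CPM, with *Apoa2* at or under 3 counts. They did not move one way: of 11 tested in KO against WT 5 rose and 4 fell, and of 10 tested in KI against WT 4 rose and 3 fell. The 5 that rose include *Cps1*, with 66 to 141 counts in KO and 0 to 16 in WT. This gene passed the low-count filter only through KO. Of all genes tested, 26.7% were called higher and 28.4% lower in KO against WT, and 21.2% and 21.0% in KI against WT. *Alb*, the albumin gene, stood at 4115 ± 524 CPM in KO, 513 ± 198 in WT and 246 ± 60.5 in KI, and *Trf*, the transferrin gene, at 1346 ± 109, 2975 ± 1077 and 1410 ± 101 (SD, n = 4, 3 and 4). *Apob*, the apolipoprotein B gene, was highest in KI, at 642 ± 67.2, 401 ± 52.2 and 930 ± 102 CPM in the same order. The part of these marker levels in the values of the coat genes was not tested.

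For *Cav1*, *Cavin1* and *Cavin3* the genes with the most similar pattern were sought by Pearson's r of log2 CPM over the 11 libraries, among 10290 genes with a mean log2 CPM of at least 2. The libraries form 3 groups and share their scaling, so r reflects mostly the group order and is given without a p-value. Nearest to *Cav1* were *Lancl1* (r = 0.987), *Dnajc10* (0.982), *Hfe* (0.980), *Nostrin* (0.976) and *Psat1* (0.973). *Dnajc10*, which like *Txndc5* encodes a disulfide isomerase of the endoplasmic reticulum, had 903 to 1172 CPM in KO, 914 to 1565 in WT and 468 to 505 in KI. Among the nearest to *Cavin3* were *Matn2* (0.993), *Pilrb1* (0.992), *Cebpg* (0.988) and *Fam110a* (0.988). Unlike *Cavin3*, these 4 were expressed in WT and KI, *Pilrb1* for instance at 26.4 to 37.4 and 32.4 to 36.5 CPM against 127 to 137 in KO. For *Cavin1*, whose level barely differed, the values were lower, with *9130401M01Rik* (0.863), *Lap3* (0.863), *Babam1* (0.863), *Zfp593* (0.842) and *Rccd1* (0.833).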

How the data were processed

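Polyadenylated RNA of 4 KO, 3 WT and 4 KI libraries was analysed from the table of read counts per gene that the authors deposited without normalization. The submitters' processing notes list HISAT2, TopHat2, Bowtie2 and StringTie; which of them made the counts, their versions and the genome build are not given in the sources used here. Of 26472 lines, 10 with broken fields were left out, and counts of entries with the same name were summed to 24849 genes. Another 11 per-sample columns of FPKM with damaged decimal points were not used, nor the authors' own fold changes and adjusted p-values for their comparisons.

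Genes passing edgeR's filter for low counts were scaled by TMM and tested with the quasi-likelihood test (R 4.3.3, edgeR 4.0.16), with the libraries of the 2 groups only and Benjamini-Hochberg adjustment over all genes tested. An adjusted p under 0.05 was a call, and a fold change used a prior count of 2. The scripts were tested on simulated data. Figures and tables used Python 3.11.15 and matplotlib 3.10.9, and lengths are exon unions of GENCODE on GRCm38. The members, the lists (other family genes, coat partners, flotillins, transcription factors, DNA methylation, and markers of hepatocytes, endothelium, fibroblasts, macrophages, adipocytes and muscle), and the tests were chosen with earlier results of these data known. Named were the 7 genes, every tested gene of the family and flotillin lists, and from the other pathway lists those called with an absolute log2 fold change over 1 in a comparison with WT, the 3 annotated neighbours on each side, the 5 genes most alike to *Cav1*, *Cavin1* and *Cavin3*, and *Txndc5*. The marker genes were named after their values were seen, and 1 gene among those most alike to *Cavin3* is not reported here.

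Over 12 pairs of libraries with the same replicate number, correlations of deviations ran from -0.19 to 0.21, and the numbers were not used as pairs. Between KO and WT they were 0.16 (KO 5, WT 5-6) and 0.21 (KO 8, WT 8), beside -0.20 (KO 5, WT 8) and -0.18 (KO 8, WT 5-6). KO 6 with WT 5-6 gave -0.02 and KO 7 with WT 7 gave 0.02. Some shared variation by number between KO and WT is thus possible. The alternatives were DESeq2 1.42.0, library totals, no filter, all 11 libraries in 1 fit, limma 3.58.1, the replicate block and leaving out each library. At these depths, 3 counts, the floor of detection, are 0.0690 to 0.134 CPM.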

Additional observations from a re-analysis of the deposited data

Results flagged for a closer look

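*Cavin3* in KI 8 stood apart from the other KI libraries, with 0.0608 CPM against 0, so that the gap made up the whole range (a ratio of 1). It rests on 2 counts, which is under the floor of 3. Of 32 sets of 4 libraries looked at, 1 had a library apart, where chance gives about 1.6.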

How the results depend on the processing

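The number of the 7 genes called stayed within 1.5 times its value under every alternative, and so did the number of other pathway genes called. Leaving out each library, 3 to 5 of the 7 genes were called in KO against WT, 2 to 3 in KI against WT and 5 in KO against KI. Over the same fits 6161 to 8449, 4276 to 6969 and 6515 to 7230 of all genes were called. For the 7 genes, 10 values under the alternatives changed direction. Library totals shift every gene. With them, KO against WT turned to 0.34 for *Cav1*, 0.15 for *Cavin2*, 0.27 for *Ehd1*, 0.30 for *Flot1* and 0.12 for *Flot2*, and KI against WT to 0.14 for *Ehd1*, 0.17 for *Flot1*, 0.18 for *Met*, 0.27 for *Pacsin2* and 0.21 for *Stom*. Leaving out 1 library gave -0.17 to 0.13 for *Cav1* and -0.16 to 0.017 for *Flot1* in KO against WT, positive only without WT 5-6 and only without WT 8. In KI against WT it gave -0.15 to 0.11 for *Pacsin2*, positive only without WT 8, and -0.20 to 0.24 for *Stoml2*, negative without WT 8, KI 6 or KI 8. In KO against KI it gave -0.037 to 0.034 for *Cavin1*, negative without KO 5, KI 5 or KI 7, and -0.054 to 0.12 for *Flna*, negative without KO 6, KO 8 or KI 8. DESeq2 gave -0.010 for *Cavin1* in KO against KI and -0.0045 for *Stoml2* in KI against WT. With the replicate number as a block, *Pacsin2* turned to 0.013 in KI against WT, *Cav2* there was -0.66 and *Cavin2* in KO against WT -0.28. *Klf4* (-0.60) and *Pacsin3* (0.37) lost their calls in KI against WT, *Ehd4* (0.23) lost its call in KO against KI, and *Flot2* (-0.27) and *Dnm1* (-0.72) gained one in KO against WT. With this block 5, 2 and 5 of the 7 genes were called in KO against WT, KI against WT and KO against KI, beside 4, 3 and 5 without it. Each of the 7 genes has 1 table entry, so summing entries by name left their counts unchanged. Beyond what the construction of each setting shows, the cause was not tested. Depth limits *Cavin3* in WT and KI, where a level under 3 counts a library could not be seen.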
